A study of Mus musculus with 76 samples.

Results

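The 10 genes described here encode chaperones of the endoplasmic reticulum and regulators of its stress response: Hspa5, Hsp90b1, Dnajb9, Calr, Canx, Pdia4, Atf6, Xbp1, Atf4 and Ddit3. They were chosen by name, with earlier results of these data known, out of 56980 Ensembl genes in the deposited counts of 76 hypothalamic cells, and all 10 were found by their gene identifiers. Every cell was recorded by patch clamp in a brain slice, aspirated into the pipette and sequenced as its own library (Patch-seq). The cells came from male PomcCreERT2;tdTomato;Pomc-eGFP mice, in which tamoxifen at 12 weeks of age switched on tdTomato permanently in cells that then used the Pomc promoter elements, while eGFP reports current Pomc promoter activity. The study's methods name the same mice PomcCreERT2;tdTomato for this experiment. Cells with eGFP are called Pomc+ and cells without it Ghost. From 2 weeks after tamoxifen the mice ate chow (CD) or a high-fat diet (HFD) for 6 months, which gave 23 Pomc+ CD, 15 Ghost CD, 19 Pomc+ HFD and 19 Ghost HFD cells. The labels tie no cell to a mouse, so each group counts as 1 sample here, no difference between groups was tested, and a spread over cells is not a spread over animals.

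A Pomc neuron makes a prohormone that is folded in the endoplasmic reticulum before it is cut into melanocortin peptides and packed into secretory granules. When unfolded protein builds up there, the sensors Ire1, Perk and Atf6 start the unfolded protein response: Ire1 splices Xbp1 mRNA, Perk slows translation but favours that of Atf4, and Atf6 is cut to release a transcription factor, and together they raise chaperone genes, while Ddit3 (CHOP) is induced when stress persists. Splicing of Xbp1, translation of Atf4 and cleavage of Atf6 are not visible in counts per gene, so the values below are mRNA levels and not readings of the response itself.

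Atf6 and Xbp1 protein act on chaperone genes through the ER stress response element, which is CCAAT followed after 9 bases by CCACG. In the RefSeq promoter table (GRCm38.p6, 250 bases before to 50 after the start of each gene), 9 of the 10 genes had an entry. Atf6 had none. The element was searched on both strands without mismatches. It was present in 4 of these 9 promoters, those of Hspa5, Hsp90b1, Calr and Canx, and in 39 of all 32851 promoters (0.119%). Its 5 copies are shown because only these 4 of the 9 promoters held an exact copy. The windows of Pdia4 and Ddit3 hold near copies with a base changed in the second block, which the search did not count. Each is read on the strand that carries CCAAT, with 5 bases on either side, and the capitals mark the 2 conserved blocks.
Hspa5, chr2:34772020-34772048, plus strand: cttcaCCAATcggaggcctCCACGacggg
Hsp90b1, chr10:86705633-86705661, minus strand: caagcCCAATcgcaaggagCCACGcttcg
Hsp90b1, chr10:86705528-86705556, plus strand: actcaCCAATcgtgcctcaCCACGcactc
Calr, chr8:84847070-84847098, plus strand: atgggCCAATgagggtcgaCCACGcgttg
Canx, chr11:50325795-50325823, minus strand: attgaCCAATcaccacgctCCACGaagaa
The Hspa5 copy lies 47 to 65 bases before the RefSeq start, the Hsp90b1 copies 89 to 107 and 194 to 212 bases before it, the Calr copy 144 to 162 bases and the Canx copy 127 to 145 bases. The short block CCACG alone was common, with a match in 32.8% of all promoters and in 7 of the 9, and the core TGACG of cAMP-type and unfolded protein response elements was in 20.8% of all and in 4 of the 9. A match describes the letters of these windows and not binding.

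Levels are given as CPM, the counts of a gene scaled to a total of 1000000 counts in its cell. Totals ran from 4057 to 1452605 counts per cell with a median of 322652, and 548 to 9808 genes were counted per cell. The median total was lowest in Ghost CD, 123528 counts, against 339691 in Pomc+ CD, 393797 in Pomc+ HFD and 333785 in Ghost HFD. A single gene outside the members took 35.8% of all counts, between 5.48% and 77.4% in a cell, so CPM of every other gene moves with it. Neuron markers were counted in 75 of 76 cells and Pomc in 73. Markers of other cells were also present. Astrocyte marker sums had medians of 445 CPM in Pomc+ CD and 706 in Pomc+ HFD against 212 and 155 in Ghost on the same diets, and microglia marker sums had medians of 32.7 and 3.98 in Pomc+ and Ghost on CD against 292 and 486 on HFD. Oligodendrocyte medians lay between 129 and 310 CPM, and those of tanycyte and ependymal markers between 9.27 and 64.4 with Rax at 0 in all cells. AgRP neuron and endothelial markers had a median of 0 in each group, with means of 89.5 and 63.4 CPM for AgRP neuron markers in Ghost CD and Ghost HFD against 2.68 and 11.9 in Pomc+ on CD and HFD.

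The members were sparse: together they took 0.106% of all counts. Of 760 gene and cell combinations, 338 held a count (44.5%), which is 4.83 members per cell in Pomc+ CD, 4.27 in Ghost CD, 4.11 in Pomc+ HFD and 4.47 in Ghost HFD. No member was counted in 3 cells, 1 Ghost CD and 2 Pomc+ HFD cells, and no cell had all 10, the highest number being 9. All 10 passed the filter used for the comparisons, a minimum of 5 counts in 3 or more cells, as did 12265 genes. Per kilobase of annotated exon, mean CPM over all cells was highest for Hspa5 (67.7), followed by Canx (44.3), Hsp90b1 (36.3), Calr (27.3), Atf4 (26.3), Xbp1 (24.7), Dnajb9 (8.63), Ddit3 (6.14), Pdia4 (4.84) and Atf6 (1.89). On the same scale Pomc was at 4965. Each of the 9 steps in that order was smaller than the SD over cells of both neighbours.

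**Figure D1:**
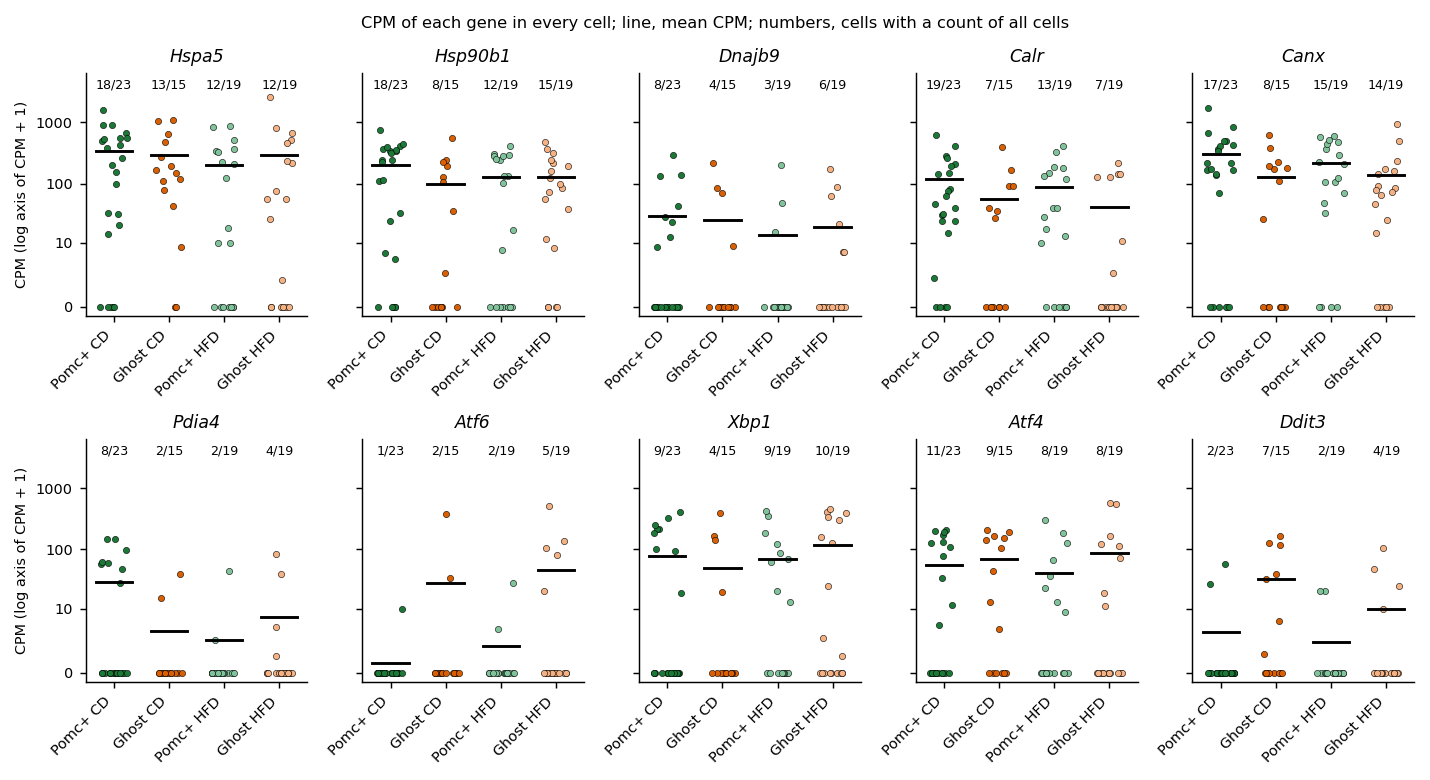
CPM of the 10 genes in each of the 76 cells on a log axis of CPM + 1, by group, with the mean CPM as a line and the number of cells with a count above. Hspa5, Hsp90b1 and Canx were counted in 53 to 55 cells, Atf6 in 10, and every group of every gene held cells at 0.

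Hspa5 (chr2:34771970-34777547, GRCm38, exon positions as in GENCODE M21) encodes BiP, the main Hsp70 of the endoplasmic reticulum, which also holds the sensors inactive. It was counted in 18 of 23 Pomc+ CD cells, with a median of 198 CPM and a highest value of 1566. In Ghost CD it was counted in 13 of 15 cells, with a median of 151 and a highest value of 1100.0. On HFD the counts were 12 of 19 cells in both labels, with a median of 18.2 and a highest value of 857 in Pomc+ and a median of 55.4 and a highest value of 2558 in Ghost. The lowest value was 0 in all 4 groups and the ranges overlapped throughout. Over both labels Hspa5 was counted in 31 of 38 CD cells (81.6%, exact 95% binomial interval 65.7% to 92.3%) and in 24 of 38 HFD cells (63.2%, 45.99% to 78.2%), intervals that overlap and cover counting error only. Group means were 339 and 295 CPM on CD and 203 and 298 on HFD, Pomc+ before Ghost. The Ghost HFD mean rested on 1 cell, number 657, whose library held 12900 counts, 33 of them from Hspa5 and none from another member, and without it the ratio of Ghost to Pomc+ on HFD went from 1.47 to 0.851.

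Hsp90b1 (chr10:86690209-86705509), which encodes Grp94, the Hsp90 of the endoplasmic reticulum, was counted in 18 of 23 Pomc+ CD cells with a median of 223 CPM and a highest value of 751. Ghost CD cells held a count in 8 of 15, with a median of 2.57 and a highest value of 559. The HFD medians lay between these. In Pomc+ HFD 12 of 19 cells held a count, with a median of 104 and a highest value of 409.7. In Ghost HFD 15 of 19 cells did, with a median of 83.7 and a highest value of 476. Ghost CD was thus the group with the lowest share and median, although its range overlapped that of each other group. Its mean was 99.5 CPM against 205 in Pomc+ CD, a ratio of 0.485, which was 0.325 without the Ghost cell 687 and 0.552 without the Pomc+ cell 660, and 0.671 with counts summed over cells. On HFD the ratio of Ghost to Pomc+ was 1.01.

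Dnajb9 (chr12:44205559-44210326) encodes ERdj4, a J-domain partner of BiP that returns Ire1 to its inactive state. It was counted in 21 cells, 8 of 23 Pomc+ CD, 4 of 15 Ghost CD, 3 of 19 Pomc+ HFD and 6 of 19 Ghost HFD cells, so each group median was 0. Group means of 29.4, 25.2, 13.8 and 18.8 CPM in that order were each carried by few cells, since the highest cell gave between 43.3% and 75.97% of a group's summed CPM. The ratio of HFD to CD in Pomc+ was 0.468, with a range of 0.119 without Pomc+ HFD cell 654 to 0.790 without Pomc+ CD cell 710, and it was 0.974 on the deposited normalized counts and 0.803 with counts summed over cells.

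Calr and Canx encode calreticulin and calnexin, the lectin chaperones that bind glycoproteins carrying a trimmed sugar, the first soluble and the second anchored in the membrane. Calr (chr8:84841850-84846934) was counted in 19 of 23 Pomc+ CD cells, with a median of 45.7 CPM and a highest value of 615, and in 7 of 15 Ghost CD cells, with a median of 0 and a highest value of 397. On HFD it was counted in 13 of 19 Pomc+ cells, with a median of 27.5 and a highest value of 406, and in 7 of 19 Ghost cells, with a median of 0 and a highest value of 216. The median Ghost cell on each diet was therefore at 0 and the median Pomc+ cell was not. Over both diets the share was 76.2% in Pomc+ (32 of 42, interval 60.5% to 87.9%) and 41.2% in Ghost (14 of 34, interval 24.6% to 59.3%). Scaled to 40000 counts per cell, where 8 shallower cells drop out, the expected numbers were 24.9 of 39 Pomc+ and 9.96 of 29 Ghost cells. The ratio of mean CPM of Ghost to Pomc+ was 0.479 on CD and 0.463 on HFD. The CD ratio ranged from 0.272 without Ghost cell 711 to 0.593 without Pomc+ cell 660, and the HFD ratio from 0.351 to 0.580. With counts summed over cells the ratios were 0.313 on CD and 0.841 on HFD.

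Canx (chr11:50293961-50325673) was counted in 17 of 23 Pomc+ CD cells with a median of 171 CPM and a highest value of 1729, and in 8 of 15 Ghost CD cells with a median of 25.7 and a highest value of 623. On HFD 15 of 19 Pomc+ cells had a count, with a median of 123 and a highest value of 589, and 14 of 19 Ghost cells, with a median of 72.2 and a highest value of 930. The medians of Ghost were below those of Pomc+ on each diet, with overlapping ranges. The ratio of means was 0.412 on CD, with 0.297 without Ghost cell 687 and 0.521 without Pomc+ cell 660 and 0.526 with summed counts, and 0.623 on HFD, where it was 0.424 without Ghost cell 653. The HFD direction was not stable over scales: summed counts gave 1.23. Calr and Canx were also the 2 members with the highest Spearman rho with the astrocyte marker sum over 76 cells, 0.312 and 0.426, against -0.02 to 0.09 for the other 8, and that sum was lower in Ghost; its part in these ratios was not tested.

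Pdia4 (chr6:47796141-47813430), which encodes ERp72, a disulfide isomerase of the endoplasmic reticulum, was counted in 16 cells. Of these, 8 were among the 23 Pomc+ CD cells, with values from 27.4 to 148 CPM where counted. It was counted in 2 of 15 Ghost CD cells with a highest value of 39.7, in 2 of 19 Pomc+ HFD cells with a highest value of 43.5 and in 4 of 19 Ghost HFD cells with a highest value of 85.8. The Pomc+ CD mean was 28.3 CPM against 3.69, 2.42 and 6.89 in the other 3 groups. The ratio of Ghost to Pomc+ on CD was 0.130 and stayed between 0.0394 and 0.162 when any 1 cell was left out. The ratio of HFD to CD in Pomc+ was 0.0855, with 0.00478 without Pomc+ HFD cell 638 and 0.106 as the highest value. At 40000 counts per cell the expected number was 6.59 of 21 Pomc+ CD cells and 0.931 to 1.98 cells in each of the others.

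The regulators were lower per kilobase than Hspa5, Canx and Hsp90b1. Atf6 (chr1:170704674-170867771), the membrane-bound sensor, was counted in 10 cells, 1 of 23 Pomc+ CD, 2 of 15 Ghost CD, 2 of 19 Pomc+ HFD and 5 of 19 Ghost HFD cells. The lone Pomc+ CD cell had 9.77 CPM and the Pomc+ HFD cells reached at most 27.9, whereas the highest Ghost values were 388 on CD and 519 on HFD. Ratios of Ghost to Pomc+ were 66.1 on CD and 27.01 on HFD, but the first rested on 6 counts in the denominator and was 5.62 without Ghost cell 659 and 13.5 with summed counts, and the second was 11.4 without Ghost cell 715 and 200.2 without Pomc+ cell 718. Over both diets 3 of 42 Pomc+ cells (7.14%, interval 1.498% to 19.5%) and 7 of 34 Ghost cells (20.6%, interval 8.70% to 37.9%) held a count.

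Xbp1 (chr11:5520659-5525893), the transcription factor whose mRNA Ire1 splices, was counted in 9 of 23 Pomc+ CD cells, 4 of 15 Ghost CD cells, 9 of 19 Pomc+ HFD cells and 10 of 19 Ghost HFD cells. Its highest values were similar in the 4 groups, 404, 400.0, 427 and 459 CPM, and its median was 0 except in Ghost HFD, where it was 0.843. Ghost HFD had the highest mean, 118 CPM, against 48.7 in Ghost CD, a ratio of 2.42 that ranged from 2.03 to 4.98, the latter without Ghost CD cell 668. In Pomc+ the means were 78.4 on CD and 70.4 on HFD.

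Atf4 (chr15:80255184-80257541), the transcription factor of the integrated stress response, was counted in 11 of 23 Pomc+ CD, 9 of 15 Ghost CD, 8 of 19 Pomc+ HFD and 8 of 19 Ghost HFD cells. Highest values were 209.8, 207, 302 and 585 CPM in that order and means were 55.4, 69.2, 40.1 and 86.8. The ratio of Ghost to Pomc+ was 1.25 on CD. On HFD it was 2.16, with 1.47 without Ghost cell 694, 3.40 without Pomc+ cell 651 and 0.672 with summed counts, so its direction depended on the scale.

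Ddit3 (chr10:127290774-127296288), which encodes the pro-apoptotic factor CHOP, was counted in 15 cells. In Ghost CD 7 of 15 cells held a count, with a highest value of 167 CPM, against 2 of 23 Pomc+ CD cells, with 26.3 and 57.2 CPM. On HFD 4 of 19 Ghost cells reached at most 105 CPM and 2 of 19 Pomc+ cells at most 20.3. Over both diets this was 11 of 34 Ghost cells (32.4%, interval 17.4% to 50.5%) and 4 of 42 Pomc+ cells (9.52%, interval 2.66% to 22.6%), or 7.76 of 29 and 2.73 of 39 expected at 40000 counts. The ratio of Ghost to Pomc+ was 8.99 on CD and 4.65 on HFD. Without the most influential cells these ran from 6.34 to 27.3, the latter without Pomc+ cell 665, and from 2.15 without Ghost cell 649 to 8.90 without Pomc+ cell 718. Summed counts gave 3.63 on CD and normalized counts 4.86, and with a minimum of 5 counts Ddit3 was held by 4 of 15 Ghost CD cells and 2 of 23 Pomc+ CD cells. The exons of Ddit3 overlap those of Mars on the opposite strand, and reads of the pair cannot be told apart without strand. Mars was counted in 13 cells, 4 of which were among the 15 with Ddit3. A second identifier with the symbol Ddit3 had 0 counts.

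**Figure D2:**
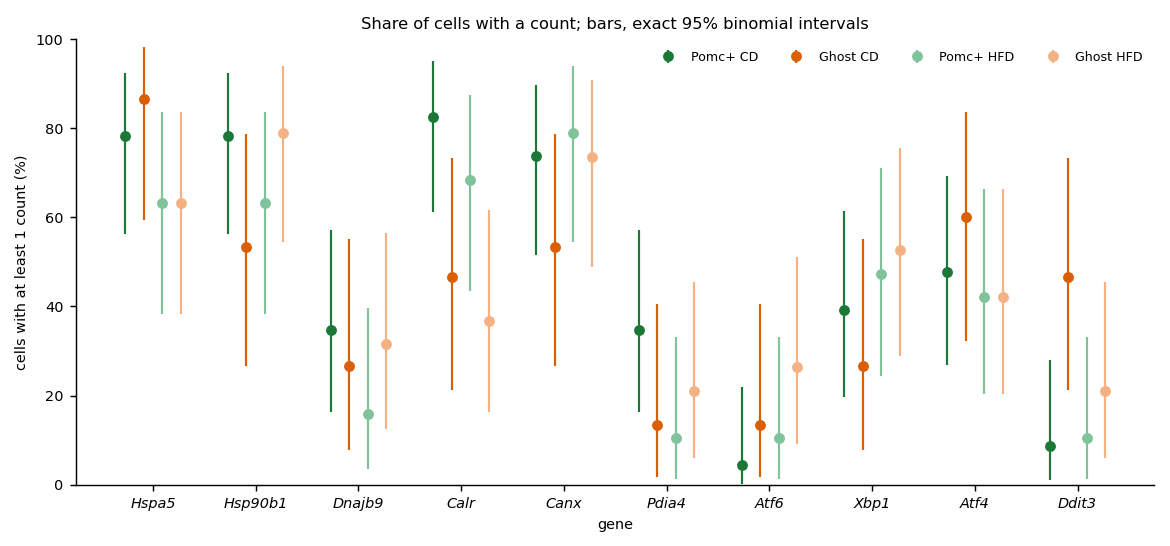
Percentage of cells with at least 1 count of each gene, by group, with exact 95% binomial intervals that cover counting error only. Calr was counted in 82.6% and 68.4% of Pomc+ and in 46.7% and 36.8% of Ghost cells on CD and HFD, and Ddit3 in 46.7% of Ghost CD cells against 8.70% to 21.1% elsewhere.

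Side by side, on CD the Ghost means of all 6 chaperones and folding factors and of Xbp1 lay below those of Pomc+, while those of Atf6, Atf4 and Ddit3 lay above. These directions were not stable for Hspa5 (1.04 without Pomc+ cell 660), Dnajb9 (1.45 without Pomc+ cell 710) and Atf4 (0.997 without the 7 genes counted in every cell and 0.871 with summed counts). Of the 10 genes, 4 had at most 0.5 times the mean CPM of Pomc+ (Hsp90b1, Calr, Canx and Pdia4), where 33.3% of 12119 genes did, and 2 at least 2 times (Atf6 and Ddit3), where 23.5% of genes did. On HFD 1 was at most 0.5 times (Calr), with 34.4% of genes, and 4 at least 2 times (Pdia4, Atf6, Atf4 and Ddit3), with 21.8% of genes. The median log2 ratio of the 10 was -0.45 on CD and 0.65 on HFD, while the median over all genes was -0.06 and -0.23. Calr, Atf6 and Ddit3 passed 2-fold in the same direction on both diets, and Pdia4 in opposite directions. The share of all genes that did either was not computed, so these counts stand without a background. Within blocks of consecutive cell numbers from 1 diet with 3 or more cells of each label, Canx was lower in Ghost in 4 of 4 CD blocks and 2 of 2 HFD blocks, Calr in 2 of 4 and 2 of 2, Hsp90b1 in 3 of 4 and 1 of 2, Pdia4 in 3 of 4 and 2 of 2, Hspa5 and Xbp1 in 2 of 4 and 1 of 2, and Dnajb9 in 1 of 4 and 1 of 2. Ddit3 was higher in Ghost in 3 of 4 CD blocks and 2 of 2 HFD blocks. The Pomc+ CD cell 660 held the highest value of Hspa5, Hsp90b1, Calr, Canx and Pomc in its group, and without it Hsp90b1, Calr and Canx were no longer past 2-fold on CD. On the deposited normalized counts the median over all genes shifted to -0.74 on CD and -0.51 on HFD, and relative to it Hsp90b1, Calr, Canx and Pdia4 stood at 0.49996, 0.391, 0.313 and 0.148 on CD, and Calr and Canx at 0.558 and 1.09 on HFD; Atf4 stood at 1.36 on CD.

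**Figure D3:**
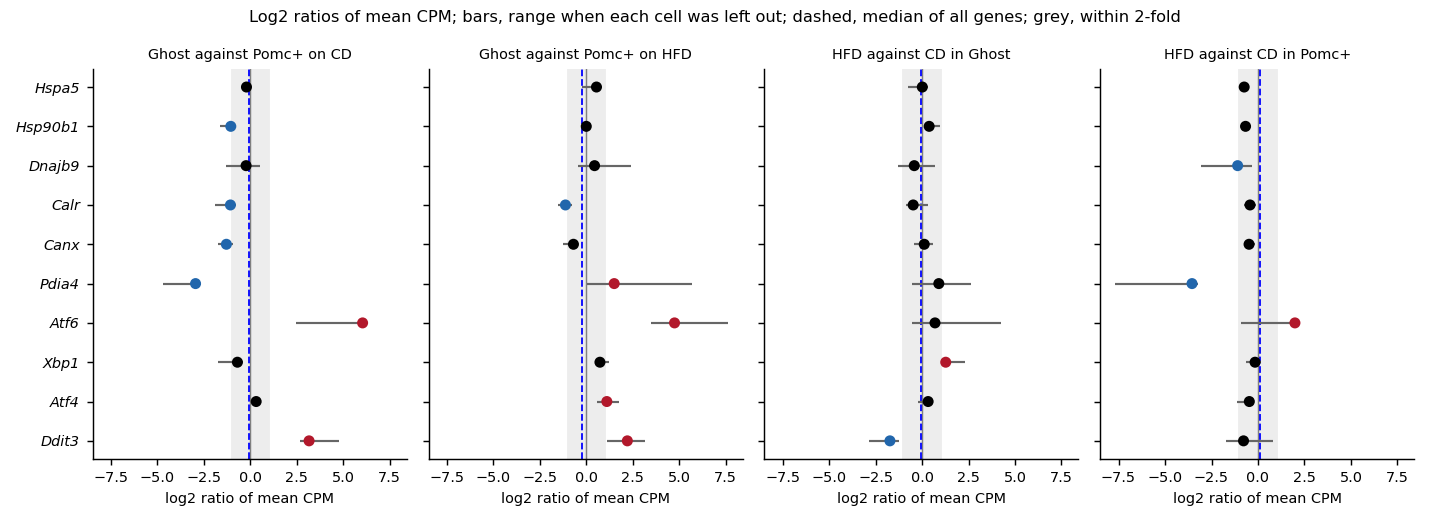
Log2 ratio of mean CPM of each gene in the 4 comparisons; bars give the range of values defined when any 1 cell was left out, the dashed line the median over all genes, and the grey band ratios within 2-fold. The Atf6 ratios against Pomc+ CD have no value without the only Pomc+ CD cell that held a count.

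By diet, most of the 10 genes had a lower mean on HFD in Pomc+ and a higher one in Ghost, in comparisons that share their CD and HFD cells with those above. Each block of consecutive cell numbers holds cells of 1 diet only. The diets can therefore not be compared within a block, and diet cannot be told apart from place in the numbering. In Pomc+ 9 of 10 had a lower mean on HFD than on CD, 7 of 10 when CPM was computed without the 7 genes counted in every cell, and Atf6 was the exception in the main values. Of these, 2 were at most 0.5 times (Dnajb9, in CPM but not on the 2 scales given above, and Pdia4), with 22.7% of all genes, and 1 at least 2 times (Atf6), with 28.7% of all genes. The median log2 ratio was -0.57 against 0.12 over all genes. Hspa5 stood at 0.598, Hsp90b1 at 0.629, Calr at 0.744 and Canx at 0.717 times the CD mean. Pomc itself stood at 0.293, with means of 11652 CPM on CD and 3414 on HFD. Ghost cells held Pomc counts too, in 32 of 34 cells, with means of 6296 CPM on CD and 3686 on HFD. The ratio of Ghost to Pomc+ for Pomc was 0.540 on CD and 1.08 on HFD, so Ghost HFD was not the lower group in Pomc mRNA. In Ghost, 7 of 10 were higher on HFD (6 without the genes counted in every cell), 1 at least 2 times (Xbp1, with 31.6% of all genes) and 1 at most 0.5 times (Ddit3, with 28.3%; its ratio of 0.302 was 0.892 with summed counts), with a median log2 ratio of 0.22 against -0.07 over all genes. Leaving out a single Ghost HFD cell took the Ghost ratio below 1 for Hspa5 (0.584), Canx (0.738), Pdia4 (0.680), Atf6 (0.684) and Atf4 (0.854). The Ghost ratios of Hsp90b1 and Xbp1 stayed above 1. With counts summed over cells, the Ghost ratios of Hspa5 (0.632) and Atf4 (0.686) were below 1 and that of Calr (1.72) was above 1. Leaving out a single Pomc+ CD cell took the Pomc+ ratio above 1 for Xbp1 (1.11) and Ddit3 (1.77). The share of all genes lower or higher on HFD was not computed, so the 9 of 10 in Pomc+ and the 7 of 10 in Ghost stand without a background. The difference between the labels was not tested.

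Against Pomc in the same cell, Hsp90b1, Hspa5, Xbp1 and Canx had the higher correlations. Spearman rho over 76 cells was 0.523 for Hsp90b1, 0.460 for Hspa5, 0.427 for Xbp1, 0.418 for Canx, 0.343 for Calr, 0.298 for Pdia4, 0.275 for Atf4, 0.181 for Dnajb9, 0.034 for Atf6 and 0.007 for Ddit3. Of the 10, 5 were at 0.3 or above, where 22.2% of 12264 genes were. Without the 7 genes counted in every cell this was 3 (Hspa5, Hsp90b1 and Xbp1), with Calr at 0.181 and Canx at 0.234. Among genes counted in at least 20 cells, 5 of 7 members and 36.4% of 4921 genes were. Pomc and the members also varied with the number of genes counted in a cell. Pomc had a rho of 0.492 with that number, and the members had 0.586 (Hsp90b1), 0.572 (Atf4), 0.567 (Xbp1), 0.522 (Canx) and 0.507 (Hspa5). With total counts, the measure of depth, rho was lower. It was 0.210 for Pomc, 0.405 for Hsp90b1, 0.286 for Atf4, 0.448 for Xbp1, 0.199 for Canx and 0.143 for Hspa5. Given the number of genes counted, partial rho with Pomc was 0.333 for Hsp90b1, 0.281 for Hspa5, 0.216 for Canx, 0.206 for Xbp1 and 0.158 for Calr, and its median was 0.129 over the 10 and 0.033 over all genes. Over the genes counted in at least 20 cells its median was 0.065. Within groups, Hsp90b1 had 0.613, 0.700, 0.338 and 0.4996 and Hspa5 0.431, 0.284, 0.273 and 0.576 in Pomc+ CD, Ghost CD, Pomc+ HFD and Ghost HFD. Calr had 0.463 and 0.707 on CD but -0.12 and 0.130 on HFD. The median over the members was 0.410, 0.374, 0.049 and 0.316 in the same order. Ddit3 had 0.390 and 0.320 in Pomc+ CD and Ghost HFD and -0.38 in each of the other groups. These Ddit3 values rest on few cells with a count: 2 of 23 Pomc+ CD, 7 of 15 Ghost CD, 2 of 19 Pomc+ HFD and 4 of 19 Ghost HFD cells.

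**Figure D4:**
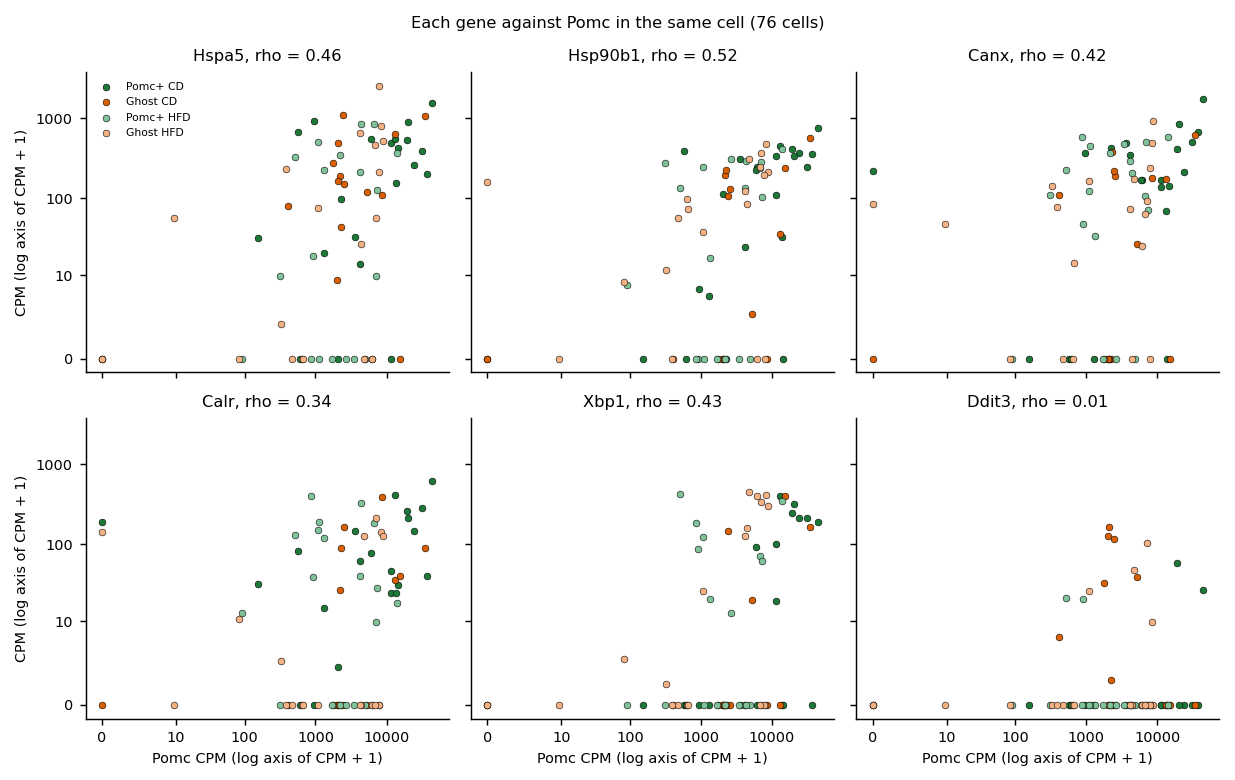
CPM of 6 genes against CPM of Pomc in the same cell, both on log axes of CPM + 1, coloured by group. The highest single values of Hspa5, Hsp90b1 and Canx lie in cells with a Pomc level above the median of all cells, and cells at 0 occur over most of the Pomc range.

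Among themselves the members had positive rho in 42 of 45 pairs, with a median of 0.229 and a range of -0.16 to 0.495. The same was not computed over pairs of all genes. With Hspa5 alone, the median rho of 4890 genes counted in at least 20 cells was 0.235, about the level of the member pairs. The highest were Hsp90b1 with Calr (0.495), Calr with Canx (0.491) and Hsp90b1 with Xbp1 (0.490). Of 46 cells with Calr, 39 also held Hsp90b1 (84.8%), and of 53 with Hsp90b1 this was 73.6%. The 15 pairs among the 6 chaperones and folding factors had a median of 0.315 and the other 30 pairs 0.197. Given the number of genes counted, the median over 45 pairs was 0.043 and 28 were positive, with Calr and Canx at 0.337 and Hsp90b1 and Calr at 0.322. Ddit3 stood apart from Pdia4: 1 cell held both, of 15 and 16 cells, with a rho of -0.16. Of the 15 cells with Ddit3, 14 also held Hspa5 and 10 Atf4. All 10 cells with Atf6 also held Hspa5 and Canx. Over all cells Hspa5 was counted in 72.4%, Canx in 71.1% and Atf4 in 47.4%. Given the number of genes counted, partial rho was 0.077 for Atf6 with Hspa5 and 0.016 with Canx. For Ddit3 it was 0.056 with Hspa5 and -0.02 with Atf4.

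**Figure D5:**
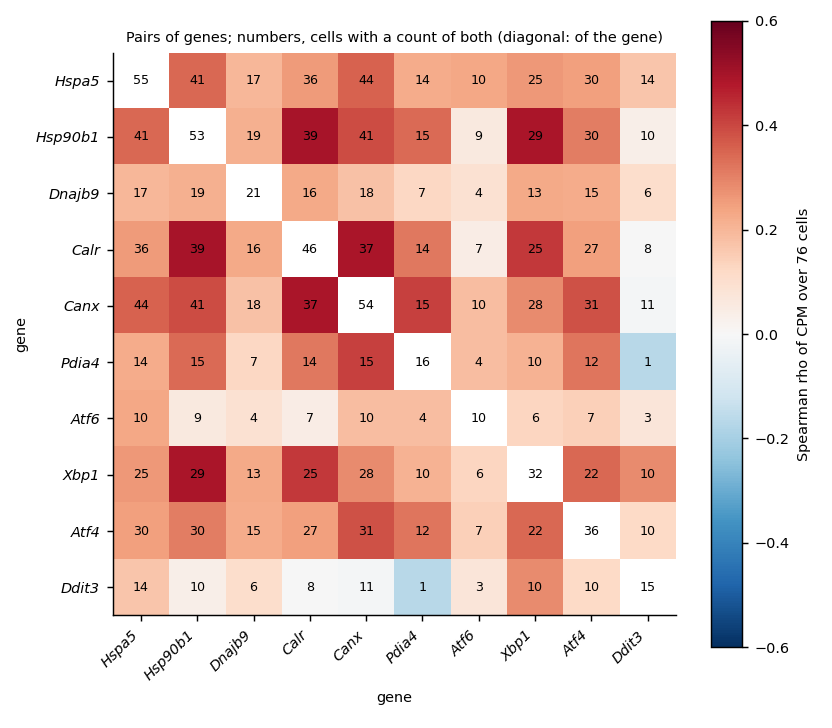
Spearman rho of CPM over 76 cells for each pair of genes (colour), with the number of cells that held a count of both genes (of the gene itself on the diagonal). The Ddit3 row holds the pair of lowest rho (Pdia4, -0.16), and the darkest pairs are Hsp90b1 with Calr, Calr with Canx and Hsp90b1 with Xbp1.

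Other genes of the pathway were counted in the same way, to be read against the 33.3% (CD) and 34.4% (HFD) of all genes at most 0.5 times and the 23.5% and 21.8% at least 2 times the Pomc+ mean. The list of sensors and feedback factors held 10 genes. Of these, 4 were at least 2 times and 3 at most 0.5 times the Pomc+ mean in Ghost on CD, and 2 and 4 on HFD. Nck1, an adaptor that restrains the Perk arm, stood at 0.145 on CD and 0.157 on HFD, and Creb3, a membrane-bound relative of Atf6, at 0.277 and 0.284. Of 20 folding helpers of the lumen, 8 were at most 0.5 times and 1 at least 2 times on CD, and 6 and 3 on HFD. P4hb, the protein disulfide isomerase, stood at 0.414 and 0.422, and Ero1b, which oxidises such isomerases, was counted in 0 of 15 Ghost CD cells, which leaves room for up to 20% of cells holding a count (3 over the number of cells; it does not limit cells that express the gene), and in 7 of 23 Pomc+ CD cells, with 0.293 on HFD. Of 14 genes of ER-associated degradation, 4 were at most 0.5 times and 3 at least 2 times on CD, and 3 and 2 on HFD, with Selenos at 0.229 and 0.0158, Derl2 at 0.270 and 0.433 and the ubiquitin ligase Syvn1 at 2.15 and 3.46. Of 14 genes of ER translocation, 3 were at most 0.5 times and 1 at least 2 times on CD, and 4 and 5 on HFD, with the signal peptidase subunit Spcs3 at 0.135 and 0.161. Among 18 listed targets of Atf4 and Ddit3, 12 passed the filter, and 7 of the 12 were at most 0.5 times in Ghost on each diet, with 2 and 1 at least 2 times. Their median log2 ratios were -1.24 on CD, over the 9 counted in both labels, and -1.35 on HFD, over 12; Chac1 and Sesn2 were counted on CD in Ghost and not in Pomc+, and Atf3 in Pomc+ and not in Ghost. Asns, the asparagine synthetase, stood at 0.461 and 0.243, the amino acid transporter subunit Slc3a2 at 0.290 and 0.458 and the serine synthesis enzyme Phgdh at 0.127 and 0.0139. Many of these values rest on few Ghost cells: on CD 1 for Nck1 and Derl2 and 2 for Spcs3, Slc3a2, Phgdh, Hspa1a and Lonp1, and on HFD 1 for Selenos and Phgdh and 2 for Spcs3. Of 13 cytosolic heat shock genes, 3 were at most 0.5 times and 1 at least 2 times on CD and 2 each way on HFD, with Hspa4 at 0.203 and 0.195, and Hspa1a at 0.314 on CD and 0 of 19 Ghost HFD cells, which by the same floor allows up to 15.8% of cells with a count. Of 7 mitochondrial chaperones and proteases, 2 on CD and 4 on HFD were at most 0.5 times and none at least 2 times, with the protease Lonp1 at 0.132 and 0.401.

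By diet, the same lists split in both directions, where 28.7% and 22.7% of all genes in Pomc+ and 31.6% and 28.3% in Ghost were at least 2 times and at most 0.5 times the CD mean. Here too, diet cannot be told apart from place in the cell numbering. In Pomc+ the numbers at least 2 times and at most 0.5 times the CD mean on HFD were 3 and 1 for sensors and feedback, 5 and 6 for folding helpers, 5 and 2 for degradation, 0 and 5 for translocation, 5 and 2 for the targets, 1 and 3 for cytosolic heat shock genes and 1 and 1 for mitochondrial chaperones. In Ghost they were 1 and 5, 6 and 5, 5 and 4, 2 and 2, 3 and 3, 2 and 2, and 3 and 1. Herpud1, a stress-induced factor of degradation counted in 31 cells, was higher on HFD in both labels, 2.29 times in Pomc+ and 3.17 times in Ghost, as were Edem1 (2.39 and 4.77), Derl2 (2.42 and 3.88), the glycoprotein folding sensor Uggt1 (2.098 and 15.9), Hsf1 (2.71 and 2.22) and Lonp1 (2.16 and 6.57). Sec63 (0.282 and 0.115) and Shmt2 (0.343 and 0.0971) were lower. Except for Herpud1, Hsf1 and Lonp1, each of these was counted in at most 16 cells, with 1 Ghost cell on each diet for Edem1, 1 on CD for Derl2, 2 on CD for Uggt1 and Lonp1, 2 on HFD for Sec63 and 1 on HFD for Shmt2.

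The genes outside the members whose CPM followed Hspa5 most closely over 76 cells, of 4890 with a symbol and a count in at least 20 cells, were the kinesin Kif21a (rho 0.589, counted in 51 cells), Slc6a17 (0.573, 42 cells), Atp6ap2 (0.572, 39 cells), Camk2d (0.567, 31 cells) and Tle4 (0.565, 30 cells). Pomc stood at 0.460 with Hspa5, Canx at 0.354 and Hsp90b1 at 0.345, and the median of the 4890 genes was 0.235. The other members lay closer to that median. Xbp1 (0.258), Calr (0.256) and Atf4 (0.246) were above it, and Atf6 (0.231), Pdia4 (0.224), Dnajb9 (0.201) and Ddit3 (0.168) below.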

How the data were processed

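Single neurons of the hypothalamus were aspirated after patch-clamp recording and made into full-length cDNA libraries (SMART-Seq, Nextera XT), 1 per cell, with no molecular identifiers. The authors deposited raw read counts per Ensembl gene, whole numbers for 56980 genes and 76 cells, and a table of normalized counts, a signal in which each cell's raw counts are divided by that cell's own size factor (checked on the files). The submitters' processing notes name cutadapt 2.10, STAR 2.7.5a, DESeq2 and the builds GRCm38 and mm10; the counting program, its strand setting and the annotation are not given in the sources used here. Symbols were matched for 52073 identifiers.

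CPM was computed from the raw counts, without a filter on cells. Group means, ratios, shares of cells with a count (exact binomial 95% intervals) and Spearman correlations were computed in Python 3.11.15 with numpy 2.4.6, pandas 2.3.3 and scipy 1.17.1, and tested on simulated data. The labels name no mouse, so no test was run; a ratio of at least 2 or at most 0.5 stands as called, beside the same share over all genes with 5 or more counts in 3 or more cells of the 76 and a count in the groups compared. Expected numbers at 40000 counts come from the hypergeometric chance of at least 1 count. Exon lengths and positions are from GENCODE M21 (GRCm38), promoters from RefSeq. The 10 genes and the other lists were chosen with earlier results of these data known. From each other list, genes counted in at least 10 cells and past 2-fold the same way on both diets or in both labels were named, at most 3 with the largest mean log2 ratio, and the 5 genes closest to Hspa5. Protein sequences were not used here.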

Additional observations from a re-analysis of the deposited data

Results flagged for a closer look

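Pdia4 was at most 0.5 times the Pomc+ mean in Ghost on CD, with a ratio of 0.130, and at least 2 times on HFD, with a ratio of 2.85. It stands here because the same comparison passed 2-fold in opposite directions on the 2 diets. The share of all genes that did so was not computed, and the difference was not tested. The HFD ratio rested on 4 Ghost and 2 Pomc+ cells, ranged from 1.04 without Ghost cell 671 to 50.96 without Pomc+ cell 638, and was 1.58 on the deposited normalized counts and 1.80 with summed counts, both within 2-fold. Within blocks Ghost was lower in both HFD blocks with 3 or more cells of each label, with a ratio of 0.926 in the larger and no Ghost count in the other.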

How the results depend on the processing

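No paired analysis was possible because the labels tie no cell to a mouse and the cell numbers pair no cells across groups. On the deposited normalized counts the CD median over the members (log2, Ghost over Pomc+) went from -0.45 to -1.38, and members past 2-fold between diets in Ghost from 2 to 5. Leaving out 1 cell at a time gave -1.11 (without Ghost cell 668) to -0.27 for that median, 3 to 8 members past 2-fold in that comparison against 6, and 0.535 (without Pomc+ cell 718) to 4.19 for Atf6 between diets in Pomc+. Dropping from CPM the 7 genes that every cell held gave 5 members past 2-fold between diets in Pomc+ against 3, and a median rho with Pomc of 0.208 against 0.321, which was 0.049 within Pomc+ HFD. The median rho among pairs, 0.229, was 0.350 within Pomc+ CD. At least 5 counts gave 3.33 members per cell in Ghost CD and 3.68 in Ghost HFD. Of 43 ratios of Ghost to Pomc+ within a block that had counts in both labels, 14 lay on the other side of 1 than over all cells, 9 on CD and 5 on HFD. Among members past 2-fold these were Hsp90b1 (1.31 in block 5) and Calr (2.56 in block 5, 1.31 in block 7) on CD and Pdia4 (0.926 in block 2) on HFD; the others were Hspa5 (2.23 and 2.24), Dnajb9 (2.74 and 2.97), Xbp1 (3.13) and Atf4 (0.0815) on CD and Hspa5 (0.620), Hsp90b1 (0.0601), Dnajb9 (0.691) and Xbp1 (0.0685) on HFD. Of alternatives chosen after seeing the data, summed counts gave 3 members past 2-fold against 5 on HFD and 0.672 for Atf4 there, and partial rho given genes counted had medians of 0.129 with Pomc and 0.043 among pairs. The cause was not tested for any of these. Of 40 member ratios, 38 moved by less than 1.5 times without the genes counted in every cell, 21 on normalized counts and 18 with summed counts. In depth, 8 cells held under 40000 counts. How far depth limits the counts of single genes was not tested.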
